A study of Gossypium hirsutum with 51 samples.

Results

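The clones described here are the 116 of 11682 cDNA clones that stood at least 1.5 (log2) higher in wild-type than in fl ovules at +10 days post anthesis and at or below the +3 level in wild type at +15. Of the 11682 clones, 9106 were measured in both of these comparisons. A clone at least 1.5 above fl at +10 was found 488 times, which is 5.30% of the 9199 clones measured there. Of those 488, 367 lay above +3 at +15, 5 were not measured at +15, and 116 met both thresholds. Of all clones measured at +15, 53.1% lay at or below +3, so the second threshold by itself picks out the lower side of an evenly divided array. The members were thus chosen by their measured values of wild type over fl at +10 and of +15 over +3, and both are given below as a description without a test.

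Cotton fibres are single cells of the outer ovule epidermis. They start to bulge from the surface around the day the flower opens, then elongate, and later lay down a thick cellulose wall. The fl mutant is known as a fuzzless and lintless line whose seeds carry no fibre, and a comparison with it asks which ovule transcripts depend on fibre cells. The files name the clones only by plate and well, with no gene or sequence given to them in the sources used here, and no function is given to any clone below.

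Total RNA of whole ovules of upland cotton (Gossypium hirsutum) was hybridised in pairs to 51 cDNA arrays carrying Cy5 and Cy3. Wild-type ovules aged -3, 0, +5, +10, +15 and +20 days post anthesis (0 being the day of flowering) were each set against wild-type ovules aged +3, and wild type was set against fl at +3 and at +10. No treatment, cultivar or allele is given in the labels for either genotype. Each of the 8 comparisons was run 3 times with exchanged dyes, as sets of 2 arrays, and 3 self-to-self arrays had +3 wild-type RNA on both sides. Samples are described as biologically independent in the design text. A set was counted as 1 replicate, and n counts the sets in which neither array lacked a value. The +5 and +10 ages have n = 2 against +3, because 1 array with the same control values occurs under both ages and was left out. In whole ovules, fewer cells of a type and less RNA per cell cannot be told apart.

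Values are mean log2 ratios with the SD over sets. The +3 wild-type RNA is named in all 6 age comparisons and in wild type against fl at +3, and whether those arrays share an extract is not stated. Nor do the labels say which way a ratio runs, and the direction is called likely, on the basis of a control spot named HEX. If all ratios run the other way, higher and lower exchange places throughout. The HEX spot read -11.7 to -7.16 on the forward arrays and 5.83 to 12.1 on the swaps. It ran the same way on the arrays of wild type against fl at +3 (-9.20 to -8.20 forward, 5.83 to 9.09 on the swaps). At +3 the sign of wild type over fl was turned in all clones after the values had been seen, because their dye effect correlated negatively with the self-to-self arrays across clones (r from -0.57 to -0.40 in the 3 sets, against -0.06 to 0.69 in the other 19 sets, 1 of which lay below 0). That 1 set is set 3 of wild type against fl at +10, and its sign was kept. Over the members alone its r was -0.25, against -0.58 to -0.33 in the 3 sets at +3. Members are called changed at a limma adjusted p under 0.05, adjusted over all clones and named spots tested in the comparison.

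The label under which these clones were grouped says that they are switched off by +15. A ratio over +3 cannot show that a transcript is absent, and only a minority stood at least 2-fold below +3. At +15, 38 of the 116 lay at least 2-fold below +3, and 20 of those at least 4-fold below. The other 78 lay less than 2-fold below +3, 64 of all members within 0.5 of it and 27 within 0.1 of it. A further 26 clones that met the fl threshold lay up to 0.1 above +3 and so just outside. The median member stood at -0.36, with quartiles of -1.40 and -0.12 and a range from -6.50 to -0.003. The median SD over sets at +15 was 0.14, and 26 members lay within 1 SD of 0. In 91 members every measured set was at or below 0, and 25 had sets on both sides. The members are therefore called below by the 2 thresholds, and the 38 and the 78 are given apart. This division at 2-fold was set after the values had been seen and is descriptive. It was made on values over +3, which favours lower values over +3 at other ages in the 38.

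**Figure D1:**
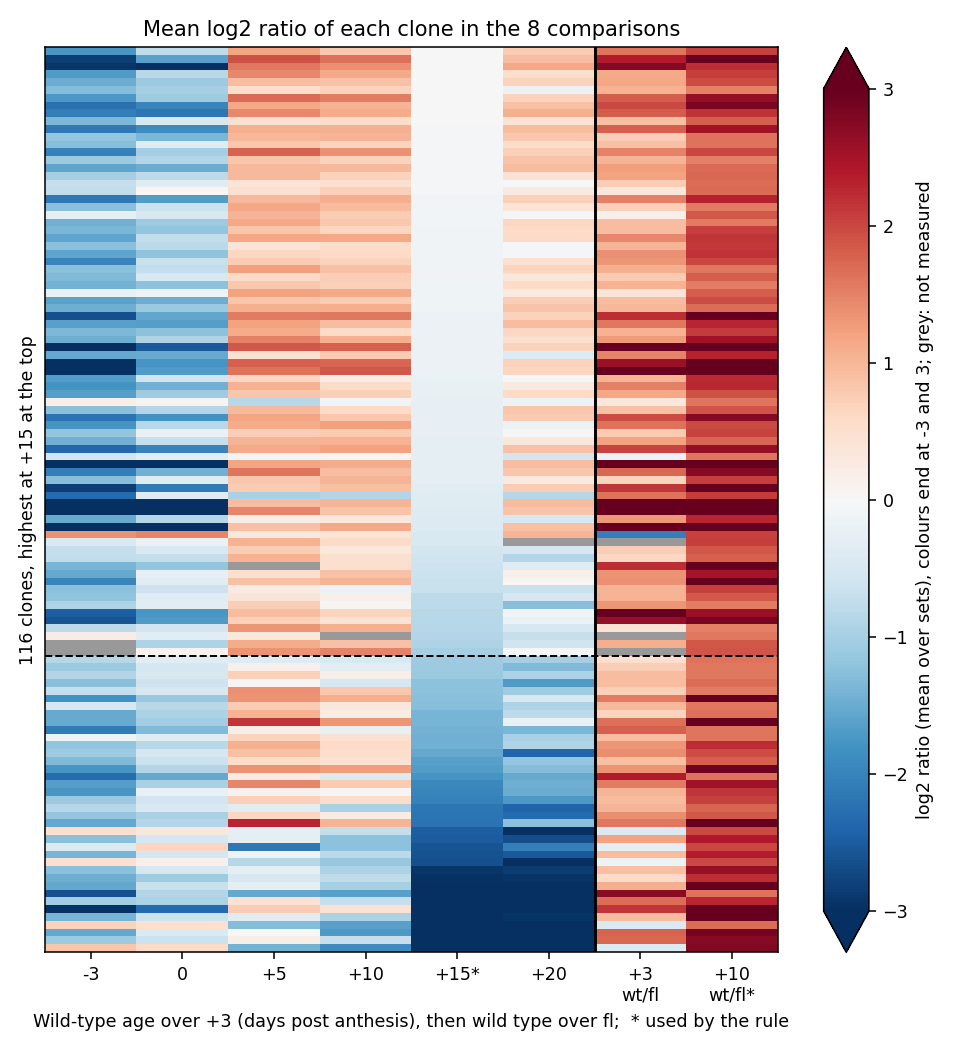
Mean log2 ratio of the 116 clones (rows, highest at +15 at the top) in the 6 comparisons of a wild-type age with +3 and in wild type against fl at +3 and +10 (columns; those with an asterisk chose the clones, and wild type over fl at +3 has the turned sign). Colours end at -3 and 3, grey was not measured, and the dashed line divides the 78 clones less than 2-fold below +3 at +15 from the 38 below it. Blue at -3 and 0 and red at +5 run through most rows above the line, whereas the rows at the bottom are blue at both +15 and +20.

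At +10 the members stood a median of 2.06 above fl, from 1.51 to 5.53, with 64 of them at least 4-fold and 17 at least 8-fold above. All clones measured there had a median of -0.14, so a change smaller than that has no settled direction. The 4 clones that stood highest over fl were CM005F03, CM033A03, CM005H11 and CM025A04. Clone CM005F03 read 5.13, 4.28 and 7.18 in sets 1 to 3, a mean of 5.53 ± 1.49 (SD, n = 3) or 46.2-fold. Clone CM033A03 read 4.75, 4.60 and 4.53, a mean of 4.62 ± 0.11 (SD, n = 3) or 24.6-fold. Its sets lay close together, whereas those of CM005F03 spread widely with set 3 the highest. Clone CM005H11 read 4.72, 3.93 and 5.05 (mean 4.56 ± 0.58, SD, n = 3). Clone CM025A04 read 4.11, 3.84 and 4.93 (mean 4.29 ± 0.57, SD, n = 3). In all 4 the wild-type side was above fl in every set.

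Set 3 raised the value of several members at +10 well above their other sets. Clone CM009A04 read 2.03, 1.95 and 4.61, CM025B11 read 2.47, 2.10 and 5.58, and CM012A02 read 1.42, 1.51 and 3.70. The median over members was 2.02 in set 1, 1.93 in set 2 and 2.30 in set 3, against -0.12, -0.14 and -0.14 over all clones. With set 3 left out of every comparison the 2 thresholds find 91 clones, 87 of them among the 116. In all 110 members measured in all 3 sets, each set lay above fl, against 33.9% of all clones. Members were chosen on the mean of these sets, which favours this.

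The members nearest the fl threshold were CM046A01 at 1.51 ± 0.05 and CM041E12 at 1.52 ± 1.02 (SD, n = 3), the latter with sets at 1.70, 0.43 and 2.44. Just outside lay CM050B09 at 1.49 and CM097F03, which missed the threshold by less than the second decimal and stood at -2.16 ± 0.21 at +15. At the other threshold CM053H12 (-0.003) and CM051C06 (-0.01) were just inside, and CM035F09 (0.001) and CM056D01 (0.01) just outside. All 4 lay within their own SD of 0 at +15.

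Before and at flowering most members were below their +3 level. At -3, 102 of 114 members tested were lower than at +3 and 4 higher, 90 of the lower ones by at least 2-fold. Over the whole array 25.0% were called lower and 20.0% higher at this age. The median member stood at -1.44, against 0.01 over everything tested. The arrays of this age are not normalized, and their sets had medians of -0.04, 0.20 and -0.26 over all clones, against -1.38, -1.29 and -1.67 over the members. At 0, 92 of 116 were lower, 43 of them at least 2-fold, and 3 were higher, where the array as a whole had 14.2% lower and 14.4% higher. The median member at 0 was -0.84, against 0.04. The 367 clones above +3 at +15 were much the same at these ages, with 318 of 357 lower at -3 (median -1.43) and 323 of 367 lower at 0 (median -0.999). No difference between the 116 and the 367 was tested. A high +3 wild-type level favours the second threshold and also lower values at -3 and 0. The counts of members here are therefore not independent of their choice.

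Clone CM005F03 had the lowest -3 value of all members, at -4.83, -5.55 and -5.87 in the 3 sets. Its mean of -5.42 ± 0.53 (SD, n = 3; limma adjusted p = 3.97e-11) is 42.7-fold below +3, and at 0 it stood at -2.51 ± 0.14 (adjusted p = 7.32e-06). Clone CM033A03 was next at -3, with sets at -3.62, -3.61 and -4.22 (mean -3.81 ± 0.35, SD, n = 3; limma adjusted p = 1.39e-14). It was 1.71 lower at 0 than at +3 (-1.71 ± 0.14). For both clones the step between -3 and 0 was larger than the spread of the sets, with no overlap between the ages.

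Clones CM005H11 and CM025A04 were lowest on the day of flowering instead. Clone CM005H11 read -4.58, -4.12 and -4.46 at 0, a mean of -4.39 ± 0.24 (SD, n = 3; limma adjusted p = 4.36e-14) or 20.9-fold below +3, and -3.64 ± 0.14 at -3. Clone CM025A04 read -4.22, -3.85 and -4.22 at 0 (mean -4.10 ± 0.21, SD, n = 3; limma adjusted p = 3.07e-12) and -3.38 ± 0.13 at -3. In both, every set at 0 was below every set at -3. On the whole array 5 clones stood at or below -3 at flowering, and all 5 were members. Besides these 2 they were CM056G01 (-3.77 ± 0.10), CM032F06 (-3.43 ± 0.32) and CM012A02 (-3.23 ± 0.27). They were chosen for naming after their values had been seen. At -3, 15 clones on the array were that low, of which 6 were members and 7 were among the 367.

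These 5 clones followed a shared course. At -3 they ranged from -3.64 to -2.92, at +5 from 0.91 to 1.59, at +15 from -0.42 to -0.01 and at +20 from 0.85 to 1.16. Over fl at +3, with the sign turned, they ranged from 2.74 to 3.55. Any low at +15, where the second threshold kept them at or below +3, is thus slight beside their low at flowering. Clone CM012A02 lay within its SD of +3 at +15. At +20 all 5 were called higher than at +3.

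At +5 the members were mostly above +3. Of 115 tested, 85 were higher, 44 of them at least 2-fold, and 9 were lower, against 26.8% higher and 29.2% lower over the array. The median member stood at 0.83, against -0.03 over everything tested. Of the 78 less than 2-fold below +3 at +15, 70 of 77 tested were higher at +5 (median 0.98). Of the 38 at least 2-fold below, 15 were higher and 7 lower (median 0.19). Of the 367 clones above +3 at +15, 329 of 354 were higher and none lower.

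The highest members at +5 belonged to the 38. Clone CM025B11 read 2.09 and 2.48, a mean of 2.29 ± 0.28 (SD, n = 2; limma adjusted p = 0.000575) or 4.89-fold, and then stood at 1.02 at +10, -2.21 ± 0.29 at +15 and -1.26 ± 0.27 at +20 (adjusted p = 0.00805). Clone CM059E06 read 2.16 and 2.11 at +5 (mean 2.14 ± 0.04, SD, n = 2; limma adjusted p = 0.000125), with 1.33 at +10 and -1.40 ± 0.16 at +15. At +20 CM059E06 stood at -0.19 ± 0.04 (adjusted p = 0.604) and was not called changed. Both clones thus went from at least 4-fold above +3 at +5 to below it at +15, with no overlap between sets.

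Clones CM123H05 and CM112G12 were the lowest at +5. Clone CM123H05 read -2.12 and -2.17, a mean of -2.14 ± 0.04 (SD, n = 2; limma adjusted p = 1.40e-06), after 0.66 ± 0.06 at 0 (adjusted p = 0.0229). Clone CM112G12 read -1.55 and -1.54 (mean -1.54 ± 0.01, SD, n = 2; limma adjusted p = 1.38e-08) and was below +3 at each age measured, from -2.63 ± 0.29 at -3 to -3.23 ± 0.29 at +20. The latter clone was thus highest at +3 itself. The call of CM123H05 at 0 was lost with exact zeros kept (p = 0.102), with any array of a set used (p = 0.0989) and without set 2 (p = 0.177).

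The +10 age is the wild-type side of the comparison that chose the members, and the values of +10 against +3 carry no test here. The median member stood at 0.69, with 91 of 115 above +3 and 24 below. At least 2-fold above +3 were 32 members and at least 2-fold below were 7, where the whole array had 6.23% and 3.73%. Clones CM033A03 (1.96 and 1.78, mean 1.87 ± 0.13, n = 2) and CM005F03 (2.03 and 1.55, mean 1.79 ± 0.34, n = 2) stood highest. Lowest were CM086E04 (-1.93 and -1.85, mean -1.89 ± 0.06) and CM009A04 (-1.54 and -1.90, mean -1.72 ± 0.25). While above fl at this age, 24 members thus stood below their own +3 level in wild type, and 21 of the 24 belonged to the 38 clones at least 2-fold below +3 at +15.

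**Figure D2:**
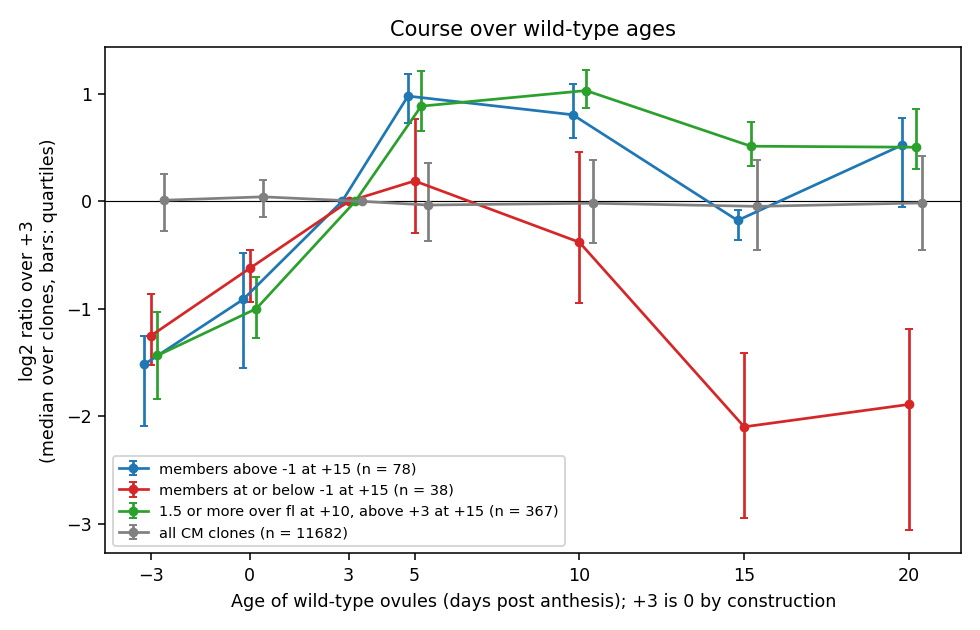
Median log2 ratio over +3 (points; bars are quartiles over clones) against the age of wild-type ovules in days post anthesis, with +3 set to 0 by construction. The 78 members less than 2-fold below +3 at +15 and the 367 clones above +3 at +15 run together to +5 and meet again at +20 (0.53 and 0.50), whereas the 38 members at least 2-fold below stand at -2.10 and -1.89 at the last 2 ages.

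At +20 the members were evenly divided. Of 115 tested, 48 were higher and 48 lower than at +3, 3 and 31 of them by at least 2-fold, and 19 were not called. The array as a whole had 33.5% higher and 35.8% lower, and each direction held 41.7% of members. All 48 higher ones were among the 78 clones less than 2-fold below +3 at +15, of which 11 were lower. Of the 38 at least 2-fold below, 37 were lower and none was higher. Both ages are set against +3, so the division at +15 favours this split at +20. The share among all clones at least 2-fold below +3 at +15 was not taken. With the second threshold moved from 0 to -0.5, 0 of 52 clones were higher at +20 and 44 lower. Of the members whose measured sets at +15 all lay at or below 0, 26 of 90 were higher.

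The 2 clones highest at +20 had lain close to +3 at +15. Clone CM012A02 read 0.01, 0.22 and -0.24 at +15 (mean -0.01 ± 0.23, n = 3) and 1.27, 1.13 and 1.08 at +20 (mean 1.16 ± 0.10, SD, n = 3; limma adjusted p = 0.00103). Clone CM053E09 read 0.12, 0.06 and -0.24 at +15 (mean -0.02 ± 0.19, n = 3) and 1.19, 1.03 and 0.96 at +20 (mean 1.06 ± 0.12, SD, n = 3; limma adjusted p = 2.61e-07). In both the sets at +20 all lay above those at +15, and at +15 the sets lay on both sides of 0. Clone CM005H11, with all sets below 0 at +15 (-0.41, -0.30 and -0.40), stood at 0.97, 0.98 and 0.92 at +20 (mean 0.96 ± 0.03, SD, n = 3; limma adjusted p = 1.32e-05). Its low at +15 and its rise at +20 were both larger than the spread of its sets. Clone CM005F03 at +20 read 0.74, 0.70 and 0.62, but with an SE of 0.34 from the fit over all comparisons it was not called (adjusted p = 0.0739).

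Across the 115 members measured at both ages, 97 stood higher at +20 than at +15 and 18 lower. The median step was 0.51, where it was -0.09 in the 367 clones and 0.003 over all clones. In 71 of 112 members measured in all sets (63.4%), every set at +20 lay above every set at +15. The same held for 27.8% of the 367 clones and 15.7% of all clones. Since members were chosen for a low value at +15, a step up from it is favoured by the choice, and it carries no test. The step was 0.70 for the 78 and 0.13 for the 38. At +20, 55 of 77 of the former stood above +3, 40 of them by 0.5 or more.

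**Figure D3:**
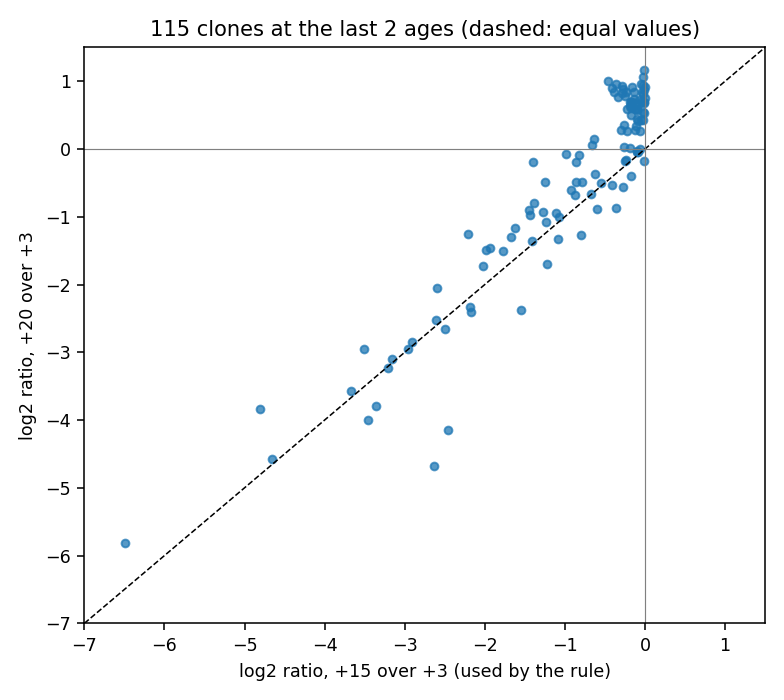
Log2 ratio of +20 over +3 (vertical) against that of +15 over +3 (horizontal, used to choose the clones) for the 115 members measured at both ages, with a dashed line of equal values. The cluster near 0 at +15 reaches up to 1.16 at +20, whereas clones below -1 at +15 scatter on both sides of the line. Of those 38, 9 lie at least 0.5 above it, CM059E06, CM025B11 and CM003H10 among them, and CM083E03 and CM079F02 lie well under it.

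The clones lowest at +15 were CM086E04, CM003H10, CM009A04 and CM095C09. Clone CM086E04 read -5.52, -5.45 and -8.52 (mean -6.50 ± 1.75, n = 3), 90.3-fold below +3, and its mean is the lowest of all clones measured at +15. At +20 it read -5.54, -5.65 and -6.28, a mean of -5.82 ± 0.40 (SD, n = 3; limma adjusted p = 2.37e-11) or 56.6-fold below +3. Set 3 was the lowest at both ages and far below sets 1 and 2 at +15, which lay close together. Clone CM003H10 read -3.78, -4.34 and -6.30 at +15 (mean -4.81 ± 1.32, n = 3) and stood at -3.84 ± 0.42 at +20 (limma adjusted p = 2.67e-08). Set 3 again lay apart from the other sets at +15.

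Clone CM009A04 read -4.56, -4.59 and -4.83 at +15 (mean -4.66 ± 0.15, n = 3). At +20 it read -4.63, -4.57 and -4.54 (mean -4.58 ± 0.05, SD, n = 3; limma adjusted p = 3.56e-11), 23.9-fold below +3, and the sets of the ages overlapped. It stood at 0.01 ± 0.03 at +5 and -1.72 ± 0.25 at +10, so the step down between +5 and +10 exceeded the spread of its sets. Clone CM095C09 stood at -3.67 ± 0.08 at +15 and at -3.58 ± 0.32 at +20 (SD, n = 3; limma adjusted p = 3.66e-14). These 4 clones are thus low at both last ages.

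Clones CM083E03 and CM079F02 went lower still from +15 to +20. Clone CM083E03 read -2.55, -2.39 and -2.97 at +15 and -4.20, -4.64 and -5.17 at +20 (mean -4.67 ± 0.49, SD, n = 3; limma adjusted p = 2.36e-15). Clone CM079F02 read -2.26, -2.20 and -2.92 at +15 and -4.01, -3.88 and -4.57 at +20 (mean -4.15 ± 0.36, SD, n = 3; limma adjusted p = 2.36e-15). In neither clone did the sets of the ages overlap.

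Taken over all ages, 111 members were measured throughout. The age of the highest level was +5 for 68 members, +10 for 25, +3 for 10 and another age for 8. Over all clones 14.7% were highest at +5 and 12.96% at +10. The age of the lowest level was -3 for 64 members, 0 for 9, +15 for 23, +20 for 14 and +5 for 1. Over all clones 24.5% were lowest at -3, 10.3% at 0, 14.4% at +15 and 15.5% at +20, so the members lowest at 0 or +20 are near the share of the array. No member could be highest at +15, because the second threshold put it at or below +3. The distance from the lowest to the highest age ran from 0.60 in CM055E05 to 7.33 in CM086E04, with a median of 2.60. For most members the low end of this range thus lay at -3 or 0.

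Ordered by the sign of their means, 85 members were below +3 at -3 and 0 and above it at +5 and +10. Their medians were -0.22 at +15 and 0.42 at +20, and 1.31 over fl at +3 with the sign turned. Another 19 were below +3 at -3 and 0 but not above it at both +5 and +10, with medians of -2.50 at +15 and -2.52 at +20. Of these, 18 were below +3 at +10. A further 6 were above +3 at both -3 and 0, namely CM032E03, CM054C04, CM079F02, CM083E03, CM086E04 and CM095C09, with medians of -2.55 at +15 and -3.87 at +20. The remaining 6 (CM028D05, CM084F02, CM086E10, CM092F08, CM093G10 and CM123H05) had another order or a missing age.

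The clone nearest the median course, measured over the comparisons outside the thresholds, was CM075F04. It stood at -1.30 ± 0.32 at -3 (SD, n = 3; limma adjusted p = 5.10e-10), -0.99 ± 0.06 at 0 and 0.53 ± 0.09 at +5 (n = 2; limma adjusted p = 0.000791). It then stood at 0.69 ± 0.16 at +10, -0.01 ± 0.15 at +15 and -0.17 ± 0.10 at +20 (adjusted p = 0.116). Its sets at +15 were -0.08, 0.16 and -0.11, so it was back at its +3 level within the spread, and not below it. That age is left out of the measure, and the median member stood lower there, at -0.36. Clones CM065A10 and CM065A11, which lie in neighbouring wells, were next, at -0.10 each at +15 and at -0.03 and -0.05 at +20.

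Of the 6 clones above +3 at the early ages, CM032E03 had the highest values. It read 1.43, 1.60 and 1.02 at -3 (mean 1.35 ± 0.30, SD, n = 3; limma adjusted p = 9.93e-06) and 1.44, 1.46 and 1.49 at 0 (mean 1.46 ± 0.02; limma adjusted p = 7.23e-06). It stood at 0.32 ± 0.08 at +5, -0.46 ± 0.11 at +15 and 1.01 ± 0.18 at +20 (adjusted p = 0.000121), so that +3, +5, +10 and +15 were its low ages. Clone CM086E04 read 0.78, 1.25 and 0.47 at -3 (mean 0.83 ± 0.39, SD, n = 3), which was not called (limma adjusted p = 0.0651). It was lower at +5 (-1.41 ± 0.24, n = 2; limma adjusted p = 0.0105). Its -3 value was called without set 3 (1.02, limma adjusted p = 6.09e-06), with arrays centred and scaled (1.01, adjusted p = 0.000307) and with the comparison fitted alone (0.83, adjusted p = 7.25e-07). Clone CM095C09 was called higher at both -3 (0.70 ± 0.45, limma adjusted p = 0.0004) and 0 (0.49 ± 0.13, limma adjusted p = 0.0124). Except for CM032E03 and CM054C04, the clones of this course were at least 4-fold below +3 at +15.

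**Figure D4:**
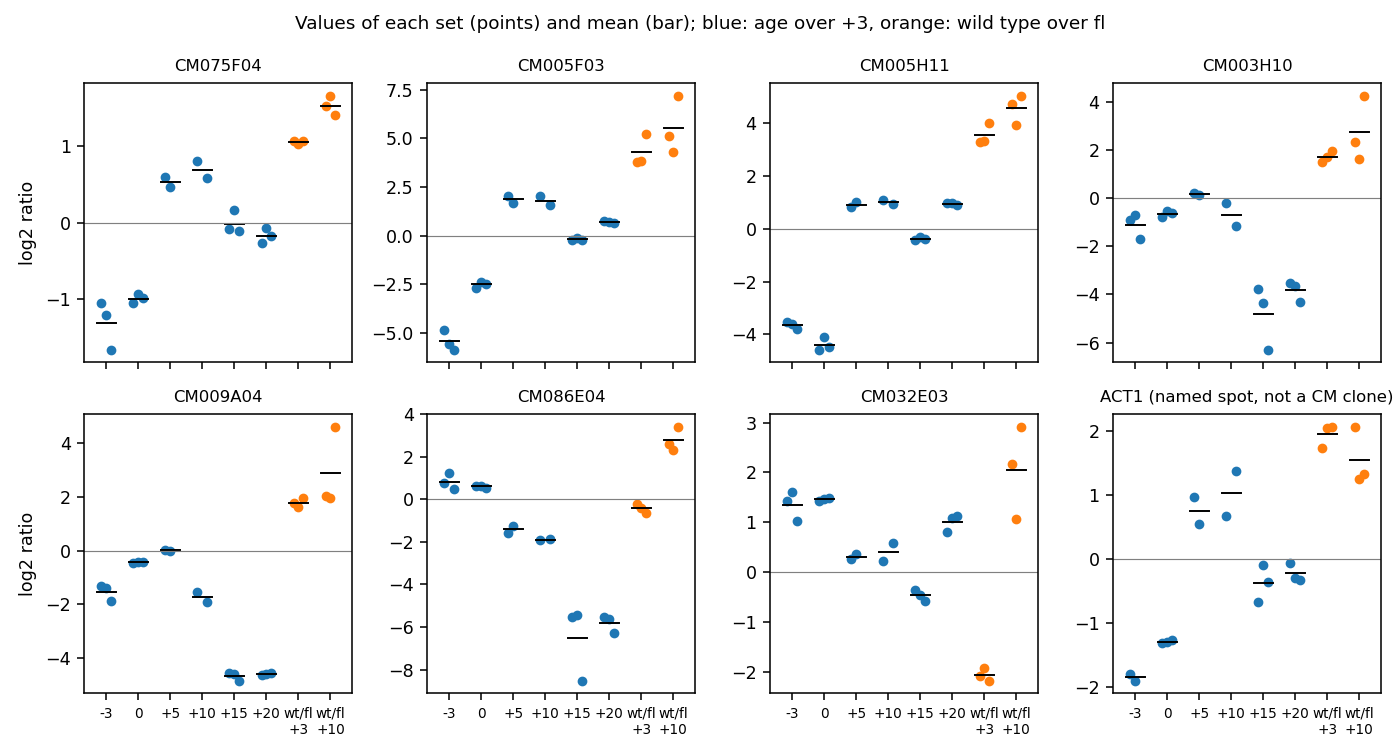
Log2 ratio of each set (points) and mean (bars) for 7 members and for the named ACT1 spot, in the 6 comparisons of an age with +3 (blue) and in wild type against fl at +3 and +10 (orange; at +3 with the sign turned for the members only); each panel has its own vertical scale. Sets lie close together for most clones, except set 3 of CM086E04 and CM003H10 at +15 and set 3 of CM009A04 over fl at +10.

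The difference from fl was present at +3 as well. With the clone sign turned, 103 of 113 members tested were higher in wild type at +3 and 3 lower, 72 of the higher ones by at least 2-fold. Over the array 19.1% were higher in wild type and 25.2% lower. A high +3 wild-type level favours both the second threshold and a value above fl at +3. The count of members is therefore not independent of their choice. The median member stood at 1.16, against -0.07 over everything tested and 1.32 in the 367 clones, of which 315 of 352 were higher. With the sign as deposited the same test gives 3 members higher and 103 lower, with a median of -1.16. For the 38 clones at least 2-fold below +3 at +15 the median was 0.99, and for the 78 it was 1.26. In 96 of 103 members measured in all sets, each set lay above 0 with the turned sign, and in the other 7 each lay below.

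Clone CM005F03 had the largest difference from fl at +3, at 3.77, 3.84 and 5.23 in the 3 sets. Its mean was 4.28 ± 0.82 (SD, n = 3; limma adjusted p = 2.00e-09), 19.4-fold, or -4.28 with the deposited sign. Clone CM005H11 read 3.30, 3.33 and 4.02 (mean 3.55 ± 0.41, SD, n = 3; limma adjusted p = 3.37e-13). As at +10, set 3 was the highest in both. Clone CM112G12, which was highest at +3 among the ages, stood at 2.71 ± 0.13 over fl at +3 and at 1.63 ± 0.07 over fl at +10. Clone CM075F04, nearest the median course, read 1.07, 1.03 and 1.06 at +3 (mean 1.05 ± 0.02, SD, n = 3; limma adjusted p = 1.84e-08), 2.07-fold above fl.

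Few members stood below fl at +3, and 3 were called lower in wild type. Clone CM032E03 read -2.08, -1.92 and -2.17, a mean of -2.06 ± 0.12 (SD, n = 3; limma adjusted p = 3.78e-08) or 4.16-fold lower than in fl. At +10 the same clone stood above fl in every set, at 2.16, 1.07 and 2.92. Clone CM079F02 read -0.37, -0.34 and -0.62 (mean -0.44 ± 0.15, SD, n = 3; limma adjusted p = 0.0099), and without set 1 its call was lost (adjusted p = 0.0665). Clone CM095C09 stood at -0.44 ± 0.16 (SD, n = 3; limma adjusted p = 0.0165). All 3 belong to the course that was above +3 at -3 and 0. The +3 wild-type level enters both values, and a low level there favours both, so they are not independent.

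Of the spots that carry gene-like names, ACT1 alone met both thresholds. It is no clone and no member, and it is on the unnormalised scale of the control rows, with the sign as deposited. RefSeq lists ACT1 as another name of a cotton actin gene, actin being the protein of the filaments that guide growth in elongating plant cells. The spot read 2.07, 1.25 and 1.33 over fl at +10 (mean 1.55 ± 0.45, n = 3) and -0.67, -0.10 and -0.36 at +15 (mean -0.38 ± 0.29, n = 3). It was lower at -3 (-1.85 ± 0.07, n = 2; limma adjusted p = 6.49e-08) and at 0 (-1.29 ± 0.02, n = 3; limma adjusted p = 1.24e-06) than at +3. It stood at 0.76 ± 0.31 at +5 and at -0.22 ± 0.14 at +20 (adjusted p = 0.182). The signs of its means at -3, 0, +5 and +10 are those of the 85 members described above. Over fl at +3 it stood at 1.95 ± 0.18 with the sign as deposited, whereas the members are positive there only with the sign turned.

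Several members had nearly the same values. Whether such clones carry the same transcript was not tested, for want of their sequences. The closest pair, CM031C03 and CM085C04, differed by 0.060 on average (root mean square over the comparisons outside the thresholds), and CM097F04 and CM115C09 by 0.092. At +15, which that measure leaves out, the first pair differed by 0.03 and the second by 0.59. Clones CM003H10 and CM078E09, both low at +15, differed by 0.17 outside the thresholds but by 1.45 at +15. The number of members is thus a number of clones, not of genes.

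The members came from 65 of 124 plates, with at most 6 on a plate, and 8 pairs lay in neighbouring wells. By well row, members ran from 6.9% in rows D and G to 19.8% in row E, against 12.4% to 12.6% of all clones. By well column they ran from 4.3% in column 8 to 13.8% in columns 2 and 4, against 8.3% to 8.4%. These positions were not tested. Plates numbered from 80 up held 19.0% of members and 35.8% of all clones. They held 13 of the 38 members at least 2-fold below +3 at +15 (34.2%) and 9 of the 78 others (11.5%). Over all clones the median at +15 was -0.37 on these plates and 0.11 on the others, and over fl at +10 it was -0.33 and -0.01. Against +3 it was also lower on these plates at +5 (-0.28 and 0.10), +10 (-0.23 and 0.10) and +20 (-0.32 and 0.14). With each plate centred on its own median, the thresholds found 145 clones, 109 of them among the 116. The part of the plates in the values at +15, and in the differences between the 38 and the 78 at other ages, was not tested further. On the self-to-self arrays, centred on their medians, the members had medians of 0.02, 0.18 and 0.06, and 1 member in 1 array was at least 2-fold off (-1.43).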

How the data were processed

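The authors deposited 1 table of log2 ratios per array, with 11706 rows (11682 CM clones, 11 named spots, 13 controls) for 51 arrays. Per the labels, each array holds a pair of RNAs in Cy5 and Cy3. The scale was found from the values: 41 arrays hold clone rows that were normalized (the method is not given in the sources used here), with medians from -0.15 to 0.11, and 10 (self-to-self, all of -3 and 1 of +10) are on the scale of the control rows, with medians from -0.52 to 0.47. Direction and centring are not stated. Spot brightness was not used here, so whether the most extreme ratios and fold values rest on spots near background was not tested. The number of arrays limits the precision. Arrays measured 7639 to 11681 clones.

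Exact zeros were taken as missing, and the array and dye swap of a set were averaged. A value needed 2 sets. The forward arrays of +5 set 3 and +10 set 2 share 19 of 19 control values, and neither was used. A group-means model over all 8 comparisons was fitted with limma 3.58.1 in R 4.3.3 (lmFit, eBayes, Benjamini-Hochberg within a comparison), and was tested on simulated data. Its p rests on 1 spread per clone over all comparisons, not on the SD printed beside it. The p-values measure the spread between sets.

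The members, lists and tests were chosen with earlier results of these data known. Clones named were the 4 highest over fl at +10, the 4 lowest at +15, the 2 highest and lowest in each other comparison, the 2 nearest each side of a threshold, the 3 nearest the median course and the named spot that met both thresholds. Others named were chosen after their values were seen. Alternatives covered array and plate centring, scaling, zeros, the shared array, sets, thresholds, the fit and the sign at +3.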

Additional observations from a re-analysis of the deposited data

Results flagged for a closer look

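In 7 members wild type stood below fl at +3 in every measured set and above it at +10 in every measured set, with the clone sign at +3 turned. The difference between the ages was not tested, and the side at +10 was fixed by the choice of members. Clone CM032E03 had the widest gap, at -2.06 at +3 and 2.05 at +10. Clones CM086E04 (-0.42 at +3, 2.78 at +10), CM079F02 (-0.44, 1.99), CM095C09 (-0.44, 1.67) and CM083E03 (-0.16, 1.98) share with it values above +3 at -3 and 0. A low +3 wild-type level favours both traits at once, so their joint occurrence is not independent evidence. The remaining clones were CM123H05 (-0.27 at +3, and 2.00 at +10 with n = 2) and CM055E05 (-0.17 and 1.61). With the sign as deposited at +3, these 7 would be above fl at both ages and most other members below fl at +3.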

How the results depend on the processing

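Most counts held within 1.5 times of the values above under array centring, scaling, plate centring, zeros kept, the shared array kept, any array of a set, all sets required and a fit of the comparison alone. The 2 thresholds found 126 clones with arrays centred (103 of the 116), 125 scaled, 113 with zeros kept and 119 with any array of a set. With an fl threshold of 2 they found 64, of which 61 were lower at -3, 52 lower at 0, 47 higher at +5, 29 higher and 23 lower at +20, and 60 higher in wild type at +3. With a +15 threshold of -0.5 they found 52, of which 43 were lower at -3, 36 lower at 0, 26 higher at +5, 0 higher at +20, 43 higher in wild type at +3 and 7 at least 2-fold higher at +10. Fewer clones were counted under both, and with the +15 threshold of -0.5 the shares moved too: 26 of 51 tested were higher at +5, 0 of 52 higher at +20 and 7 of 51 at least 2-fold higher at +10. Chosen after seeing the data, counting any value above 0 gave 91 members above +3 at +10, and requiring all +15 sets at or below 0 left 26 higher at +20.

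Leaving out each set in turn gave 91 to 124 members (also chosen after seeing the data), 88 to 104 lower at -3, 73 to 99 lower at 0, 68 to 88 higher at +5, 42 to 49 higher and 42 to 47 lower at +20, 92 to 103 higher in wild type at +3 and 28 to 32 at least 2-fold higher at +10. A lone set at +5 or +10 was then assumed to vary like the other comparisons. Fewer members were tested in some of these runs. Without set 1 or set 2, 97 were tested at -3 against 114 with all sets, and 88 were lower. Without set 1, 103 were tested over fl at +3 against 113, and 92 were higher. The deposited sign at +3 turned the count to 3 higher, and CM005F03 to -4.28, CM005H11 to -3.55, CM032E03 to 2.06 and CM079F02 to 0.44.

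Whether set numbers pair the comparisons is not settled. Deviations of equal-numbered sets correlated across clones at -0.10 to 0.34 (median 0.03), over 0.1 in 10 of 45 pairs. Sets of different number correlated at -0.31 to 0.17 (median -0.02), over 0.1 in 8 of 90 pairs. With the set number as a replicate block, 101 members were lower at -3, 92 lower at 0, 85 higher at +5, 48 higher and 48 lower at +20, and 103 higher in wild type at +3.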
